A study of Mus musculus with 12 samples.

Results

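The FGF module described here holds the genes of the fibroblast growth factors, their 4 receptors, and the genes that ERK switches on to limit or carry the signal. Members were chosen by symbol: every Fgf gene with a number, Fgfr1 to Fgfr4, the Sprouty and Spred genes, Dusp4, Dusp6, Etv4 and Etv5. Of the 37 names that the rule gives, 36 were found among 52636 genes in the tables, and Spry3 was not analysed here. They were read in embryonic stem cells (ESCs) of the mouse line E14, in 12 RNA-seq libraries of 4 groups with 3 biological replicates each. The groups were day 6 embryoid bodies (EBs) of cells with a knockdown (KD) of the circular RNA circKat6b-e2, EBs of wild-type (WT) cells, undifferentiated KD ESCs and undifferentiated WT ESCs. The titles mark the KD as shcircKat6b-e2, and the labels do not say if a control shRNA was used in WT cells, or if the KD line is 1 clone. ESC medium held serum, 10 ng/mL LIF, 3 μM of the GSK3 inhibitor CHIR99021 and 1 μM of the MEK inhibitor PD0325901. Since MEK is the kinase that activates ERK, ESCs were sampled with the pathway inhibited, and the medium of the EBs is not given in the labels. Libraries were made from poly-T selected mRNA, so the circular RNA itself was not measured here.

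Secreted FGFs bind receptor tyrosine kinases of the FGFR family together with heparan sulphate, and the receptors signal through FRS2, GRB2, RAS, RAF and MEK to ERK. ERK in turn raises transcripts of Sprouty and Spred proteins, which act on RAS and RAF, of dual-specificity phosphatases, which remove the activating phosphates of ERK, and of the ETS factors ETV4 and ETV5. In mouse ESCs the main ligand is FGF4, whose signal moves cells out of the naive state and toward lineage commitment. FGF5 marks the epiblast that follows, and FGF8 acts at the primitive streak and in early mesoderm.

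Total counts were 25.4 to 37.8 M per library, and no pair of libraries was identical. ESC WT replicate 2 stood apart, at 49.2 on a first principal component of the ESC libraries on which the others lay between −21.9 and 4.5, and members whose call in ESCs or between stages changed without it are given with both values below. In EBs 55.7% of 17355 tested genes differed between KD and WT, in ESCs 0.603% of 16081. Levels are in RPKM, the TMM-scaled counts per kilobase of gene and per 1 M counts. Levels and sums set side by side between groups depend on this scaling. In TPM, scaled to the same sum in each library, mean Etv4 was 27.3 in KD EBs and 34.2 in KD ESCs, against 7.13 and 17.9 RPKM. Mean Fgf4 was 167 TPM in KD ESCs and 158 TPM in WT ESCs, against 87.5 and 97.1 RPKM. Log2 fold changes are given as KD minus WT within a stage, or as EB minus ESC. Calls are edgeR quasi-likelihood tests at an adjusted p under 0.05 over all tested genes, and values after ± are SDs with n = 3. In bulk RNA, fewer cells of a type and less RNA per cell cannot be told apart.

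Of the 36 members, 27 passed the filter on low counts in EBs. There 13 were higher and 7 lower in KD, or 74.1% of those tested, beside 28.0% higher and 27.7% lower among all tested genes. The median log2 fold change of the members was 0.24, beside 0.00241 for all tested genes. The direction differed with the role: 6 of the 8 Sprouty, Spred and Dusp genes and both ETS genes were higher, 3 of the 4 receptors were lower, and ligands moved both ways. In ESCs 1 of 24 tested members was called, Spred2.

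The promoters of 4 members that were higher in KD EBs are shown. They are textbook targets of ERK or, for Fgf4, the main ligand upstream of it. The choice was limited by the promoter sequences at hand, which held none for Etv4 and Spry4, also higher in KD EBs. Other members higher there, such as Spry2, had a sequence that is not printed. Each line gives the 250 bases before a RefSeq transcript start in GRCm38.p6, 5′ to 3′ on the strand of the gene. Capitals mark GGAA or its reverse complement TTCC, the core that ETS factors such as ETV4 and ETV5 bind.
Fgf4 (chr7:144861136-144861385, + strand): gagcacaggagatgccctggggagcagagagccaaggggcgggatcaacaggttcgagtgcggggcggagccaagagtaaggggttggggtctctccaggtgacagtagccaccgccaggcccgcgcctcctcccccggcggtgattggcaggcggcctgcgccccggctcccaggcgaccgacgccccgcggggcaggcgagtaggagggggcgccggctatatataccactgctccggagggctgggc
Dusp6 (chr10:99262981-99263230, + strand): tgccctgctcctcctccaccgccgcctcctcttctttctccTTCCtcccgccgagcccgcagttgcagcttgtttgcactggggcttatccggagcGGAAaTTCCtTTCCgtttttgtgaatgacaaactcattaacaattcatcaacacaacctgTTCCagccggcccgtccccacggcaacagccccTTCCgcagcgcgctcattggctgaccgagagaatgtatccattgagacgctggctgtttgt
Spred1 (chr2:117120821-117121070, + strand): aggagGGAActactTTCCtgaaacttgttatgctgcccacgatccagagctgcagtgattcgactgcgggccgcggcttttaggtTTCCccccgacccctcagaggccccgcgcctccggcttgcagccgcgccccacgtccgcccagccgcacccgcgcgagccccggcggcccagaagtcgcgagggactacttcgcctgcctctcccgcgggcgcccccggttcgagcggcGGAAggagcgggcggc
Etv5 (chr16:22438369-22438618, - strand): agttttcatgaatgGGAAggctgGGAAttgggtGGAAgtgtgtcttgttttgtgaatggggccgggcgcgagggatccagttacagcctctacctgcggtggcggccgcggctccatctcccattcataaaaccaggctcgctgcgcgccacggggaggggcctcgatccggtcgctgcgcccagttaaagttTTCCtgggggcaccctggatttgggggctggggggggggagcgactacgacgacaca
The Dusp6 window held 6 cores, those of Spred1 and Etv5 shown here held 4 each, and that of Fgf4 held 0. Etv5 has another RefSeq start, whose window (chr16:22439571-22439820) held 0 cores and is not printed. Over all windows of the members, 32 of 34 from 26 genes held a core (94.1%), beside 93.4% of the 32851 windows of the whole table, so these 4 letters do not set the members apart. The longer ETS letters CCGGAAG, which contain the core, were in 0 of the 34 windows on either strand, beside 6.9% of all windows. Matching letters are a description and no evidence of binding. The search for the short core was added after the result for the longer letters was seen.

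Fgf4, the autocrine ligand of ESCs, was higher in KD EBs. It stood at 3.28, 3.40 and 3.48 RPKM in KD EBs, against 0.807, 0.557 and 1.32 RPKM in WT EBs, and at 86.0, 91.5 and 85.0 RPKM in KD ESCs, against 97.1, 103 and 90.7 RPKM in WT ESCs. Every KD EB library lay above every WT EB library, while in ESCs the groups overlapped. The KD effect was 1.85 in EBs (SE 0.22 and edgeR adjusted p = 1.95e-06) and −0.14 in ESCs (SE 0.07 and edgeR adjusted p = 0.289). Fgf4 was the member with the deepest fall during differentiation, a log2 fold change of −4.69 in KD cells (SE 0.17 and edgeR adjusted p = 3.37e-11) and of −6.74 in WT cells (SE 0.20 and edgeR adjusted p = 3.42e-12). KD EBs thus held more Fgf4 than WT EBs and still far less than ESCs of either genotype.

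Transcripts of undifferentiated cells moved with Fgf4 in EBs. The summed level of 7 markers (Pou5f1, Nanog, Sox2, Zfp42, Esrrb, Klf4 and Tfcp2l1) was 116 to 129 RPKM in KD EBs, against 71.6 to 74.1 RPKM in WT EBs, and 1374 to 1430 RPKM in KD ESCs, against 1063 to 1305 RPKM in WT ESCs. All but Nanog were higher in KD EBs (6 of 7), and each of the 7 was above 0.1 RPKM in every group. The part of these markers in the Fgf4, Etv4 and Etv5 results was not tested.

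Fgf5, the other tested member of the FGF4 subfamily and a marker of the post-implantation epiblast, had the opposite stage pattern. It stood at 6.25, 6.28 and 5.59 RPKM in KD EBs, against 6.99, 6.36 and 7.29 RPKM in WT EBs. In ESCs 1 KD library held 6 counts and the other 5 libraries held 0, so that WT EBs were at least 670.4-fold higher than WT ESCs, against a floor of 3 counts over the group. KD EBs lay below WT EBs by a small margin (log2 fold change −0.25, SE 0.09 and edgeR adjusted p = 0.0239). This call was lost with DESeq2 (adjusted p = 0.0525), when all 12 libraries were fitted (0.606) and also without EB KD replicate 3 (0.119), EB WT replicate 1 (0.0565) or EB WT replicate 3 (0.109).

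**Figure D1:**
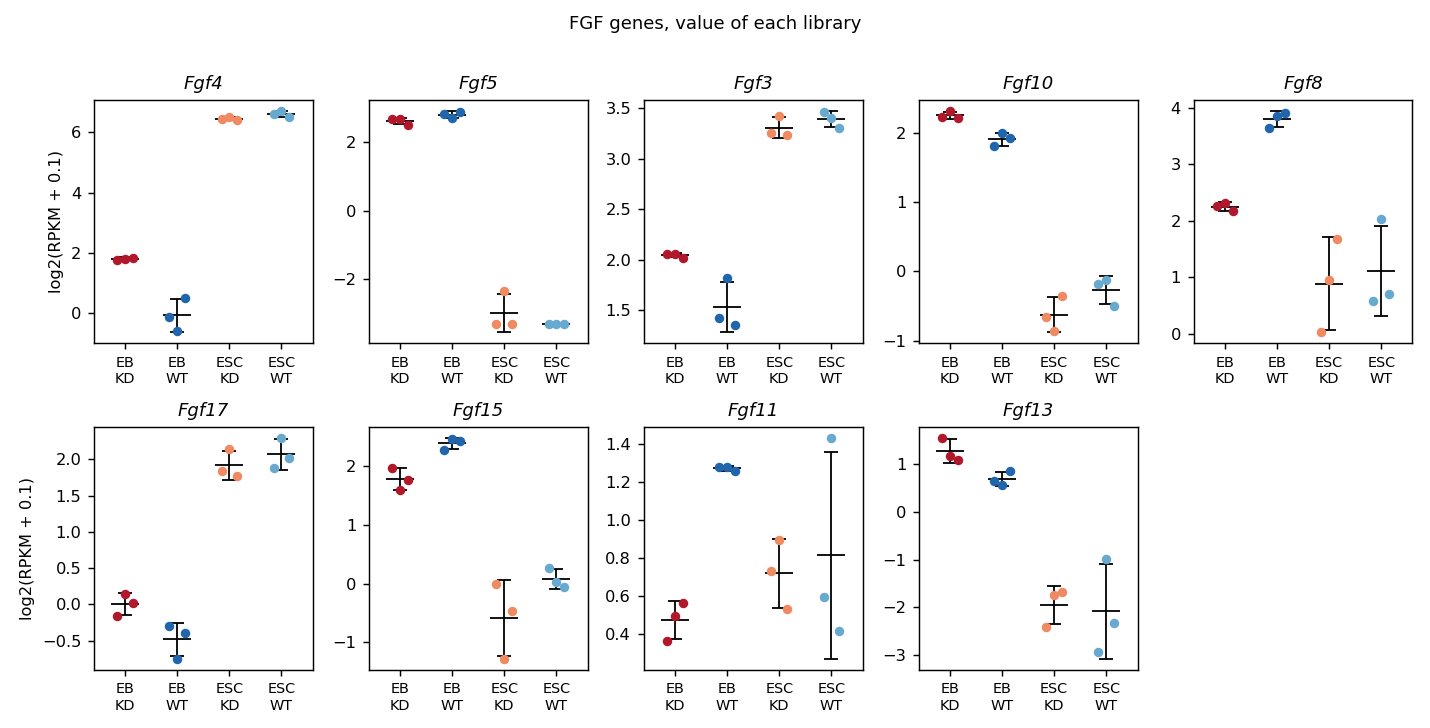
Level of 9 FGF genes in each library, as log2(RPKM + 0.1), in KD and WT EBs and KD and WT ESCs; points are libraries, the long bar is the mean and the short bars 1 SD. Fgf4, Fgf3 and Fgf17 are highest in ESCs, Fgf5, Fgf10, Fgf8, Fgf15 and Fgf13 in EBs, and KD EBs lie above WT EBs for Fgf4 and below them for Fgf8.

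Ligands of the FGF7 subfamily were higher in KD EBs, in 3 of 3 tested members. Fgf3, which signals in the streak and later in the inner ear, was at 4.06, 4.07 and 3.96 RPKM in KD EBs, against 2.57, 3.42 and 2.46 RPKM in WT EBs. Its KD libraries agreed closely and lay above all WT libraries (log2 fold change 0.46, SE 0.14 and edgeR adjusted p = 0.00654), and the call was lost without EB WT replicate 3 (edgeR adjusted p = 0.0549). ESCs held more of it, at 9.49, 10.7 and 9.35 RPKM in KD and 10.96, 10.5 and 9.82 RPKM in WT cells, with overlapping groups.

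Fgf10, the mesenchymal ligand of lung and limb buds, was at 4.58, 4.84 and 4.52 RPKM in KD EBs, against 3.40, 3.87 and 3.68 RPKM in WT EBs (log2 fold change 0.29, SE 0.09 and edgeR adjusted p = 0.00494; 0.0802 in the fit of all 12 libraries). The groups did not overlap in EBs. In ESCs Fgf10 ran from 0.451 to 0.681 RPKM in KD and from 0.607 to 0.817 RPKM in WT cells. Fgf7, a mesenchymal ligand for epithelial receptors, was also called higher in KD EBs (2.00, SE 0.64 and edgeR adjusted p = 0.00836), at levels of only 0.141 to 0.212 RPKM in KD and 0.0149 to 0.0561 RPKM in WT EBs. Fgf22 was below the count filter.

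Summed markers of fibroblasts and mesenchyme, the tissue that makes Fgf7 and Fgf10 in the embryo, were at 163 to 167 RPKM in KD EBs, against 60.7 to 62.2 RPKM in WT EBs. Of these 6 genes 4 were higher (Col1a2, Col3a1, Lum and Postn) and Thy1 was lower. Their part in the ligand results was not tested.

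Fgf8, the streak ligand, was the member with the largest fall in KD EBs. It stood at 4.72, 4.89 and 4.40 RPKM in KD EBs, against 12.4, 14.3 and 14.9 RPKM in WT EBs, so every KD library lay below every WT library (log2 fold change −1.63, SE 0.11 and edgeR adjusted p = 6.34e-14). ESCs held 0.921, 1.83 and 3.08 RPKM in KD and 1.40, 3.99 and 1.54 RPKM in WT cells, with wide spread and overlap. Of the streak and early mesoderm markers, T, Mixl1 and Eomes were higher in KD EBs and Mesp1 was lower. The sum of these 4 was 13.9 to 14.6 RPKM in KD EBs, against 6.60 to 7.12 RPKM in WT EBs. Their part in the Fgf8 result was not tested. Summed lateral mesoderm markers (Hand1, Hand2 and Foxf1) were 330.3 to 344 RPKM in KD EBs, against 417 to 424 RPKM in WT EBs, with Hand1 lower and the other 2 higher. Of 4 paraxial mesoderm markers 3 were tested and 0 called. Their sum was 8.60 to 10.1 RPKM in KD EBs, against 2.39 to 5.93 RPKM in WT EBs. Most of it was Tcf15, whose KD EB libraries lay above all WT EB libraries (log2 fold change 1.09, SE 0.42 and edgeR adjusted p = 0.0801). The part of the lateral and paraxial markers was not tested.

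Fgf17, a close relative of Fgf8, was higher in ESCs. It was at 0.797, 1.00 and 0.917 RPKM in KD EBs, against 0.710, 0.495 and 0.659 RPKM in WT EBs, a difference that was not called (log2 fold change 0.48, SE 0.32 and edgeR adjusted p = 0.211). ESC levels were 3.30 to 4.33 RPKM in KD and 3.59 to 4.81 RPKM in WT cells.

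Fgf15 is an endocrine FGF of the mouse and a gene of the embryonic neural tube. It was at 3.80, 2.92 and 3.28 RPKM in KD EBs, against 4.73, 5.37 and 5.22 RPKM in WT EBs. All KD libraries lay below all WT libraries (log2 fold change −0.67, SE 0.11 and edgeR adjusted p = 4.09e-06). A share of 25.7% of its exon bases overlaps other gene models, and the counting left out reads that overlapped more than 1 annotated gene. Fgf3 (chr7:144838083-144844436), Fgf4 (chr7:144847367-144865243) and Fgf15 (chr7:144896531-144900953) lie side by side within 62.9 kb of GRCm38 on the + strand, and Fgf3 and Fgf4 were higher and Fgf15 lower in KD EBs. Summed neuroectoderm markers were low, 5.81 to 7.01 RPKM in KD EBs, against 2.55 to 2.97 RPKM in WT EBs, with Tubb3 higher, Sox1 lower and Pax6 not called. Nearly all of this sum was Tubb3, at a mean of 6.25 RPKM in KD and 2.37 RPKM in WT EBs. The part of these markers in the Fgf15 result was not tested.

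Among the intracellular FGF homologous factors, which are not secreted and bind sodium channels and other partners, Fgf11 was lower and Fgf13 higher in KD EBs. Fgf11 was at 1.18, 1.31 and 1.38 RPKM in KD EBs, against 2.33, 2.32 and 2.29 RPKM in WT EBs (log2 fold change −0.90, SE 0.16 and edgeR adjusted p = 1.58e-05). Fgf13 was at 2.84, 2.16 and 2.02 RPKM in KD EBs, against 1.48, 1.38 and 1.71 RPKM in WT EBs (log2 fold change 0.56, SE 0.15 and edgeR adjusted p = 0.00175; 0.298 in the fit of all 12 libraries). Neither pair of groups overlapped. In ESCs Fgf11 ran from 1.23 to 2.60 RPKM and Fgf13 from 0.0309 to 0.404 RPKM over the 6 libraries.

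The other FGF genes were near 0. Group means of Fgf1, Fgf2, Fgf6, Fgf9, Fgf12, Fgf14, Fgf16, Fgf18, Fgf21, Fgf22 and Fgf23 reached at most 0.432 RPKM, and Fgf20 had no count in any library. Of these, Fgf2, Fgf9 and Fgf12 were tested in EBs and not called, and Fgf1 and Fgf21 in ESCs and not called. Fgf12, another intracellular factor, had 66 counts over the KD EBs and 46 over the WT EBs with 0 over ESCs of either genotype, at least 19.4-fold higher in KD EBs than KD ESCs and at least 15.3-fold higher in WT EBs than WT ESCs.

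Between stages the expressed FGF genes moved both ways. Besides Fgf5, in both genotypes Fgf10, Fgf8, Fgf15 and Fgf13 were higher in EBs, with log2 fold changes of 3.06, 1.24, 2.45 and 3.79 in KD cells and 2.31, 2.61, 2.40 and 3.17 in WT cells. Fgf4, Fgf3 and Fgf17 were lower in EBs, and the values of Fgf3 and Fgf17 were −1.29 and −2.03 in KD cells and −1.89 and −2.72 in WT cells. The edgeR adjusted p of these 6 genes ran from 1.05e-10 to 0.00898. Fgf11 was called in neither genotype, at −0.27 in KD cells (SE 0.25 and edgeR adjusted p = 0.336) and 0.41 in WT cells (SE 0.24 and edgeR adjusted p = 0.134). In WT cells it was called higher without ESC WT replicate 2 (0.77 and edgeR adjusted p = 0.00306) and without TMM scaling (0.97 and edgeR adjusted p = 0.000917), and without TMM scaling its value in KD cells was 0.10 (edgeR adjusted p = 0.685).

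The makeup of the secreted ligands differed between the groups. Summed levels were 27.7 ± 0.789 RPKM in KD EBs, 34.6 ± 2.07 RPKM in WT EBs, 106 ± 4.33 RPKM in KD ESCs and 116 ± 8.74 RPKM in WT ESCs. Fgf4 made up 12.3% of the sum in KD EBs and 2.57% in WT EBs, beside 82.9% in KD ESCs and 83.4% in WT ESCs. Fgf8 made up 16.9% in KD EBs and 40.0% in WT EBs, where it was the leading ligand, and in KD EBs Fgf5 led with 21.8%, beside 19.9% in WT EBs. These shares describe the levels above and were not tested.

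**Figure D2:**
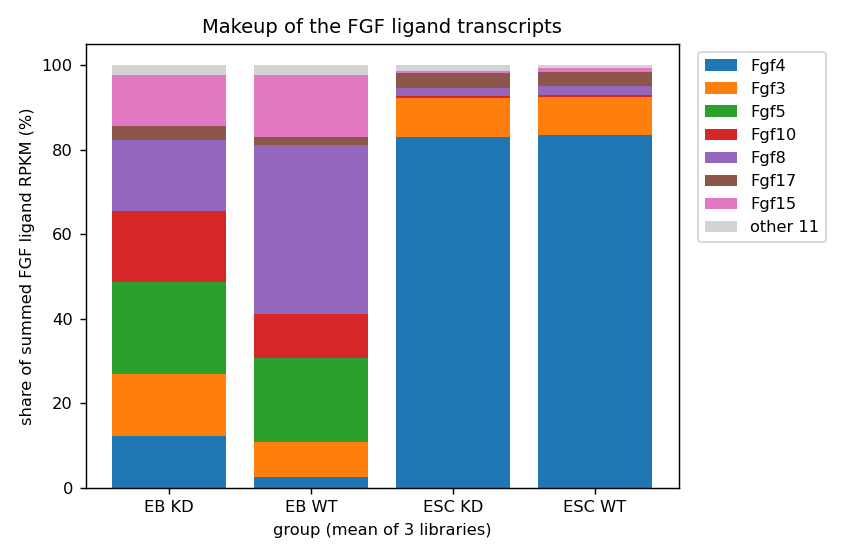
Share of each ligand gene in the summed RPKM of the secreted FGF genes (percent, mean of 3 libraries) in KD and WT EBs and KD and WT ESCs. ESC bars are mostly Fgf4 (82.9% in KD and 83.4% in WT), WT EBs have the largest Fgf8 share (40.0%), and KD EBs have several ligands at similar shares.

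Receptor transcripts were lower in KD EBs for 3 of 4 genes. Fgfr1, the receptor of the epiblast and mesoderm, was at 21.9, 22.5 and 21.2 RPKM in KD EBs, against 34.4 RPKM in each of the 3 WT EB libraries (34.4 ± 0.0160). The groups were far apart (log2 fold change −0.72, SE 0.03 and edgeR adjusted p = 4.41e-18). In ESCs the direction was not the same: 9.36, 8.85 and 9.03 RPKM in KD and 8.20, 6.93 and 9.03 RPKM in WT cells, with overlap (0.18, SE 0.10 and edgeR adjusted p = 0.312).

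Fgfr3 had the largest fall of a receptor. It was at 5.39, 5.84 and 5.73 RPKM in KD EBs, against 12.4, 11.6 and 11.5 RPKM in WT EBs (log2 fold change −1.13, SE 0.05 and edgeR adjusted p = 2.77e-18), with no overlap. A share of 13.9% of its exon bases overlaps G630022F23Rik, and the counting left out reads that overlapped more than 1 annotated gene. Its ESC levels were 0.0978 to 0.167 RPKM in KD and 0.185 to 0.279 RPKM in WT cells, also without overlap, though not called (−0.73, SE 0.44 and edgeR adjusted p = 0.362; 0.0333 in the fit of all 12 libraries).

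Fgfr2, the receptor of epithelia and primitive endoderm, was at 7.92, 8.18 and 8.24 RPKM in KD EBs, against 9.07, 8.79 and 8.24 RPKM in WT EBs. These groups touched, and the small difference (−0.16, SE 0.04 and edgeR adjusted p = 0.00277) was lost in the fit of all 12 libraries (0.621). Summed markers of definitive and extraembryonic endoderm were 275 to 286 RPKM in KD EBs, against 151 to 155 RPKM in WT EBs. Of these 6 genes 4 were higher and 2 lower (Foxa2 and Gata4). The largest part of the sum in KD EBs was Ttr, at a mean of 129 RPKM, against 34.1 RPKM in WT EBs. Summed trophoblast markers were 25.02 to 25.8 RPKM in KD EBs, against 11.6 to 12.5 RPKM in WT EBs (1 of 2 tested higher). Nearly all of this sum was Cdx2, at a mean of 25.3 RPKM in KD and 12.01 RPKM in WT EBs. Gcm1 was not called. The part of the endoderm and trophoblast markers in the Fgfr2 result was not tested. Fgfr4 ran from 5.45 to 6.39 RPKM in KD EBs and from 5.47 to 5.95 RPKM in WT EBs and was not called (−0.05, SE 0.09 and edgeR adjusted p = 0.653).

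All 4 receptors were higher in EBs than in ESCs in both genotypes, with the largest rises for Fgfr2 (6.11 in KD cells, SE 0.20, and 6.02 in WT cells, SE 0.19) and Fgfr3 (5.42, SE 0.16, and 5.74, SE 0.15). The edgeR adjusted p of these rises lay between 1.01e-14 and 2.84e-13. Summed receptor levels were 41.4 ± 1.28 RPKM in KD EBs, 60.7 ± 1.03 RPKM in WT EBs, 12.8 ± 0.367 RPKM in KD ESCs and 12.1 ± 1.44 RPKM in WT ESCs. Fgfr1 was the most abundant receptor in every group, at 52.7% of the sum in KD EBs, 56.7% in WT EBs, 71.0% in KD ESCs and 66.3% in WT ESCs. Nearly all of the rest in ESCs was Fgfr4, at 27.0% in KD and 30.7% in WT cells.

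**Figure D3:**
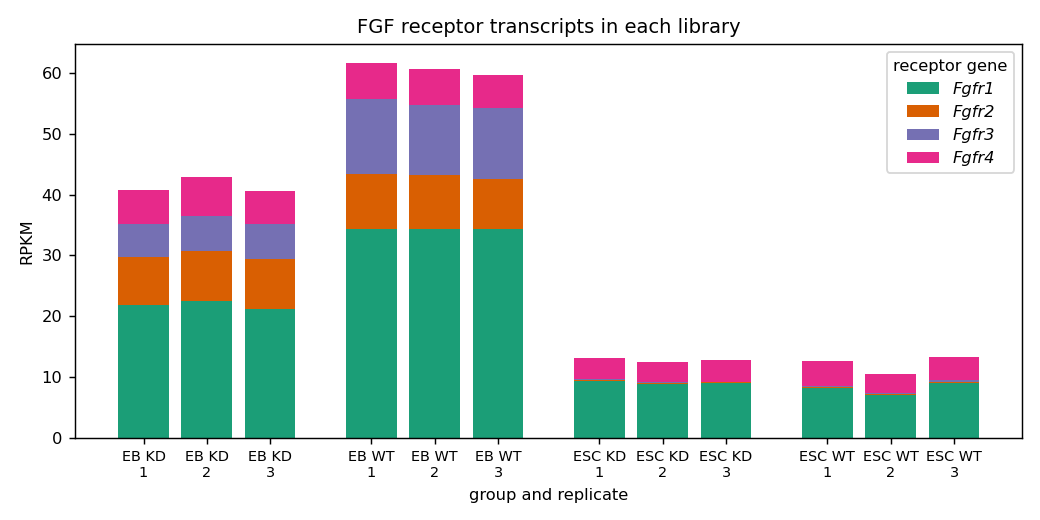
RPKM of the 4 FGF receptor genes in each library, stacked, with 3 libraries each of KD EBs, WT EBs, KD ESCs and WT ESCs. KD EB bars reach 40.6 to 42.9 RPKM, WT EB bars 59.6 to 61.7 RPKM and ESC bars 10.5 to 13.3 RPKM, and Fgfr2 and Fgfr3 are nearly absent in ESCs.

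Sprouty genes, whose products bind adaptors of the receptors and restrain RAS activation, rose in KD EBs for 2 of 3 members. Spry4 was at 4.96, 5.20 and 4.62 RPKM in KD EBs, against 1.58, 1.72 and 1.78 RPKM in WT EBs, with a wide gap between the groups (log2 fold change 1.48, SE 0.10 and edgeR adjusted p = 4.15e-14). In ESCs Spry4 was at 1.48, 1.46 and 1.39 RPKM in KD and 1.06, 0.550 and 1.21 RPKM in WT cells, which did not overlap and was not called (0.62, SE 0.28 and edgeR adjusted p = 0.225). Spry2 was at 20.3, 20.5 and 18.9 RPKM in KD EBs, against 16.7, 15.5 and 16.5 RPKM in WT EBs (0.23, SE 0.06 and edgeR adjusted p = 0.00277). Spry1 ran from 8.91 to 10.1 RPKM in KD and from 8.89 to 9.14 RPKM in WT EBs (0.02, SE 0.08 and edgeR adjusted p = 0.843), and 24.4% of its exon bases overlap another gene model.

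All 3 Spred genes, whose products bring neurofibromin to RAS at the membrane, were higher in KD EBs. Spred1 was at 15.2, 15.9 and 14.5 RPKM in KD EBs, against 11.2, 10.0 and 10.1 RPKM in WT EBs (log2 fold change 0.48, SE 0.05 and edgeR adjusted p = 7.33e-10). Spred2 was at 15.0, 15.5 and 15.6 RPKM in KD EBs, against 12.9, 12.3 and 12.3 RPKM in WT EBs (0.24, SE 0.05 and edgeR adjusted p = 6.81e-05). Spred3 was at 4.53, 5.15 and 4.88 RPKM in KD EBs, against 3.39, 3.30 and 2.86 RPKM in WT EBs (0.55, SE 0.08 and edgeR adjusted p = 1.10e-06). None of these pairs of groups overlapped.

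Dusp6, the cytoplasmic ERK phosphatase that serves as a readout of FGF signalling in the embryo, was at 15.6, 15.0 and 13.6 RPKM in KD EBs, against 9.01, 7.15 and 8.50 RPKM in WT EBs. Its groups did not overlap (log2 fold change 0.78, SE 0.08 and edgeR adjusted p = 1.05e-09). Dusp4, the nuclear phosphatase, was at 14.0, 16.5 and 13.6 RPKM in KD EBs, against 13.0, 12.2 and 12.9 RPKM in WT EBs. It missed the threshold (0.16, SE 0.07 and edgeR adjusted p = 0.0608) although its groups did not overlap.

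The ETS genes Etv4 and Etv5, whose products carry FGF signals to the genome, were higher in KD EBs and lower in EBs than in ESCs. Etv4 was at 6.39, 7.40 and 7.61 RPKM in KD EBs, against 2.58, 3.17 and 3.18 RPKM in WT EBs (log2 fold change 1.20, SE 0.10 and edgeR adjusted p = 1.41e-11). Etv5 was at 23.2, 23.1 and 22.7 RPKM in KD EBs, against 12.01, 12.01 and 12.8 RPKM in WT EBs (0.85, SE 0.05 and edgeR adjusted p = 3.77e-16). Neither gene's groups overlapped. ESCs held 17.1, 19.3 and 17.2 RPKM of Etv4 in KD and 22.6, 24.95 and 24.7 RPKM in WT cells, and 116, 114 and 106 RPKM of Etv5 in KD and 118, 157 and 110.2 RPKM in WT cells.

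**Figure D4:**
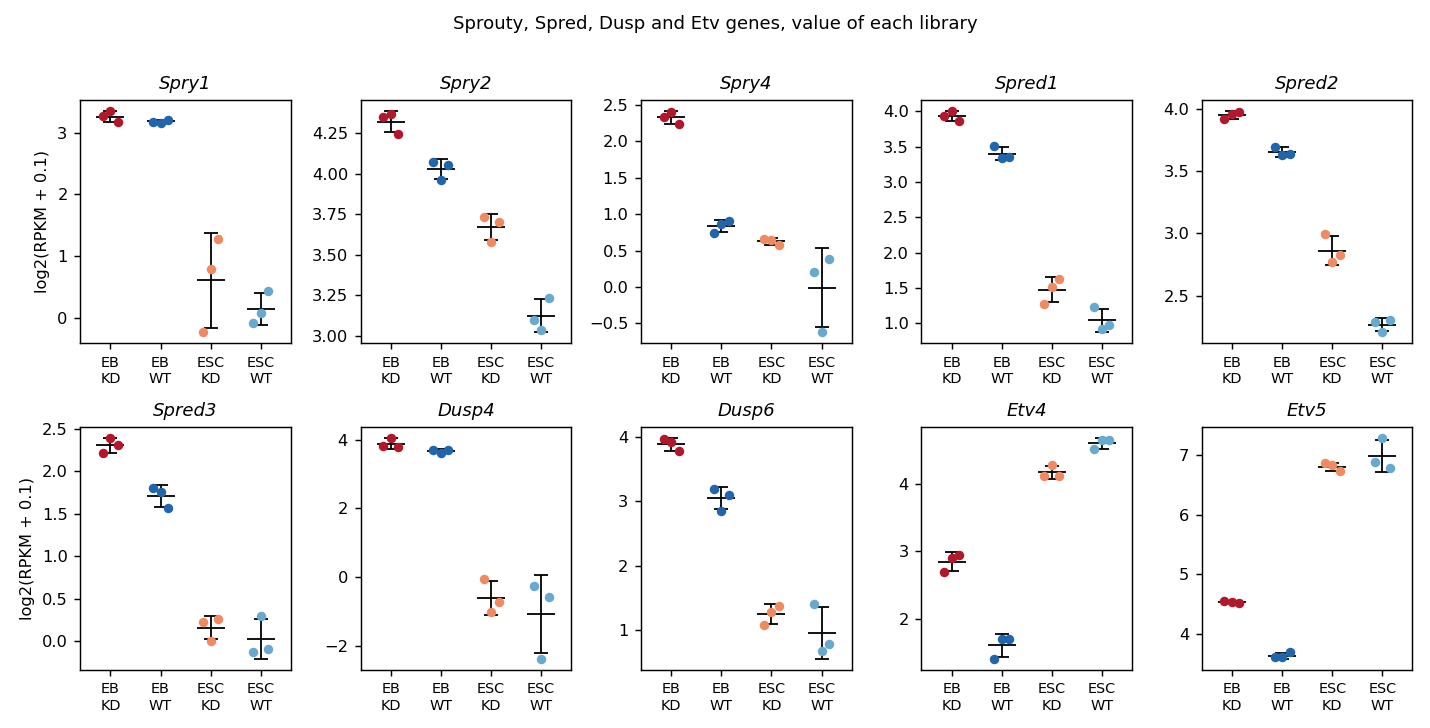
Level of the Sprouty, Spred, Dusp and Etv genes in each library, as log2(RPKM + 0.1), in KD and WT EBs and KD and WT ESCs; points are libraries, the long bar is the mean and the short bars 1 SD. KD EBs lie above WT EBs for all but Spry1, and ESCs lie below EBs for the Sprouty, Spred and Dusp genes and above them for Etv4 and Etv5.

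The feedback genes and the ETS genes thus parted between stages. All 8 Sprouty, Spred and Dusp genes were higher in EBs than in ESCs of both genotypes, while the log2 fold change of Etv4 was −1.33 in KD cells (SE 0.10 and edgeR adjusted p = 4.32e-09) and −3.02 in WT cells (SE 0.11 and edgeR adjusted p = 4.43e-13). That of Etv5 was −2.28 in KD cells (SE 0.10 and edgeR adjusted p = 1.30e-11) and −3.39 in WT cells (SE 0.11 and edgeR adjusted p = 2.65e-13). The largest rise among feedback genes was that of Dusp4, by 4.66 in KD cells (SE 0.35 and edgeR adjusted p = 5.01e-08) and by 4.70 in WT cells (SE 0.36 and edgeR adjusted p = 4.93e-08). Over all members tested in 12 libraries, 20 were higher and 6 lower of 31 in KD cells, and 21 were higher and 7 lower of 31 in WT cells. Among all tested genes 79.8% were called in each genotype, 42.5% higher and 37.3% lower. The libraries of each stage stand in a count table of their own, so stage and whatever else differed between the tables cannot be told apart. Without TMM scaling the median of all genes moved to 0.518 in KD and 0.704 in WT cells, beside 0.149 and 0.172 with it, and no member called between stages changed direction. The value of Fgf11 in KD cells, which was not called, changed sign.

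In ESCs, under the MEK inhibitor, 1 of the 24 tested members was called between KD and WT. Spred2 stood at 7.85, 6.72 and 6.98 RPKM in KD ESCs, against 4.79, 4.51 and 4.85 RPKM in WT ESCs (log2 fold change 0.61, SE 0.11 and edgeR adjusted p = 0.0380). Among all tested genes 0.168% were called higher and 0.435% lower. The Spred2 call was lost without ESC KD replicate 1, 2 or 3 (edgeR adjusted p = 0.244, 0.192 and 0.212), without ESC WT replicate 1 (0.0773) and without TMM scaling (0.0762).

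The 8 Sprouty, Spred and Dusp genes all had positive estimates in ESCs, with a median log2 fold change of 0.51, beside 0.36 in EBs and 0.01 for all genes tested in ESCs. Besides Spred2, estimates were 0.64 for Spry1 (SE 0.37), 0.62 for Spry4 (SE 0.28), 0.56 for Spry2 (SE 0.12), 0.46 for Spred1 (SE 0.15), 0.32 for Dusp4 (SE 0.62), 0.28 for Dusp6 (SE 0.24) and 0.15 for Spred3 (SE 0.22), and the lowest edgeR adjusted p of these was 0.0606, for Spry2. The KD and WT ESC groups did not overlap for Spry2, Spry4, Spred1 and Spred2 and overlapped for the other 4. Of these 8 genes Spred2 alone was called, and the share of all tested genes without overlap was not computed.

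Spry2 and Etv4 just missed the threshold in ESCs, and their calls depended on the setting. Spry2 was at 13.2, 11.8 and 12.9 RPKM in KD ESCs, against 8.47, 8.09 and 9.31 RPKM in WT ESCs (0.56, SE 0.12 and edgeR adjusted p = 0.0606), and passed without ESC WT replicate 2 (0.00374), without ESC WT replicate 3 (0.0489), with no filter (0.00362), with DESeq2 (adjusted p = 0.00976) and in the fit of all 12 libraries (0.00393). Etv4 was lower in each KD ESC library than in any WT ESC library (−0.42, SE 0.09 and edgeR adjusted p = 0.0606), and passed without ESC WT replicate 2 (0.000452), with no filter (0.00125), with the replicate number as a block (0.0473), with DESeq2 (adjusted p = 0.00731) and in the fit of all 12 libraries (0.0166). At an unadjusted p under 0.05, 5 of the 24 tested members differed (20.8%), beside 21.4% of all tested genes (9.71% higher and 11.7% lower). These were Spry2, Spry4, Spred1 and Spred2, higher in KD, and Etv4, lower in KD. At the adjusted threshold 0 members were called lower in the edgeR fit used for the calls here. DESeq2 called 1 (Etv4), which the other edgeR settings given above also called. The median log2 fold change over all members was −0.07, beside 0.01 for all tested genes.

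The test of the difference between stages, (KD minus WT in EBs) minus (KD minus WT in ESCs), was called for 6 members upward and 2 downward of 31 tested, or 25.8%, beside 23.0% of all tested genes (12.8% upward and 10.2% downward). The members' share is thus close to that of all genes. Upward were Fgf4 (2.05, SE 0.24 and edgeR adjusted p = 8.13e-05), Etv4 (1.69, SE 0.14 and edgeR adjusted p = 9.51e-07) and Etv5 (1.10, SE 0.14 and edgeR adjusted p = 5.52e-05), which were called higher in KD EBs and were not called in ESCs. Spry4 (0.93, SE 0.29 and edgeR adjusted p = 0.0301), Fgf10 (0.75, SE 0.23 and edgeR adjusted p = 0.0296) and Fgf3 (0.60, SE 0.18 and edgeR adjusted p = 0.0283) passed by small margins. With 1 library left out, Spry4 lost the call in 11 of the 12 fits (edgeR adjusted p = 0.0521 to 0.0864), all but that without ESC WT replicate 2. Fgf10 lost it in 8 (0.0557 to 0.0944), those without ESC WT replicate 1, ESC KD replicate 1 or 2, EB WT replicate 1 or 3 or any EB KD replicate. Fgf3 lost it in 8 (0.0520 to 0.0887), those without ESC WT replicate 1, ESC KD replicate 1 or 3, EB WT replicate 1 or 3 or any EB KD replicate. Downward were Fgfr1 (−0.83, SE 0.10 and edgeR adjusted p = 4.24e-05) and Fgf18, which rests on few counts. Fgf8 did not pass (−1.36, SE 0.54 and edgeR adjusted p = 0.0866) but did without ESC WT replicate 2 (0.000585) or ESC KD replicate 1 (0.0210). Without ESC WT replicate 2 the difference was also called for Fgf11 (−1.10 and edgeR adjusted p = 0.00691; 0.186 with it), Dusp6 (0.70 and edgeR adjusted p = 0.0159; 0.0910 with it) and Spred2 (−0.31 and edgeR adjusted p = 0.0304; 0.0506 with it). Spred2 also passed without ESC WT replicate 1 or 3 or ESC KD replicate 2 or 3 (0.0300 to 0.0419), with DESeq2 (adjusted p = 0.0434) and without TMM scaling (0.0194), and Dusp6 with no filter (0.0416). Spred1 (0.09, SE 0.14 and edgeR adjusted p = 0.722) and Fgf15 (0.05, SE 0.35 and edgeR adjusted p = 0.971) had estimates near 0 that turned negative without TMM scaling (−0.07 and −0.12).

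**Figure D5:**
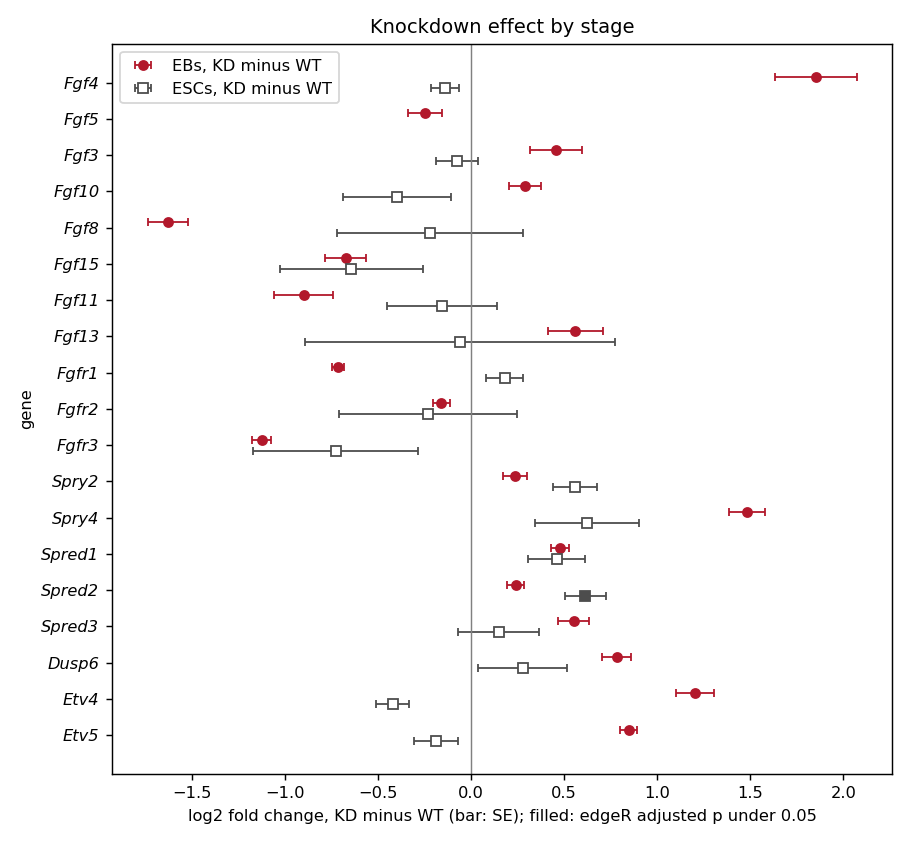
KD minus WT log2 fold change of the members named by the expression and test rule, in EBs (circles) and ESCs (squares), with bars of 1 SE and filled symbols where the edgeR adjusted p was under 0.05. EB values run from −1.63 for Fgf8 to 1.85 for Fgf4 and all are filled, while in ESCs Spred2 alone is filled; Fgf5 was below the count filter in ESCs.

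Other genes of the pathway were read from a list of 57. In EBs 20 of 56 tested were higher and 23 lower in KD, with a median log2 fold change of −0.06, beside 28.0% higher and 27.7% lower among all tested genes. Co-receptors and extracellular modulators were 10 higher and 1 lower of 16, adaptors and cascade genes 6 higher and 11 lower of 23, and other ERK phosphatases and targets 4 higher and 11 lower of 17 (median −0.47). Of the phosphatase and target genes outside the module 11 of 17 thus fell in the same EBs in which Dusp6, Spry4, Etv4 and Etv5 rose. In ESCs Myc was the 1 partner of 55 called (1.82%), beside 0.603% of all tested genes.

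Genes of that list with a log2 fold change of at least 1 in either direction in EBs were Fos, Flrt2, Elk3 and Myc. Fos, an immediate early gene that ERK induces within minutes, was at 2.79, 2.84 and 2.30 RPKM in KD EBs, against 13.0, 12.1 and 11.3 RPKM in WT EBs (−2.26, SE 0.10 and edgeR adjusted p = 2.59e-18). Flrt2, a membrane protein of a family that binds FGF receptors, was at 6.75, 6.80 and 6.69 RPKM in KD EBs, against 1.45, 1.52 and 1.20 RPKM in WT EBs (2.22, SE 0.08 and edgeR adjusted p = 2.17e-20). Elk3, an ETS factor phosphorylated by ERK, averaged 5.27 ± 0.336 RPKM in KD EBs and 2.06 ± 0.318 RPKM in WT EBs (1.29, SE 0.10 and edgeR adjusted p = 2.63e-12). Myc averaged 13.4 ± 0.400 RPKM in KD EBs and 6.13 ± 0.615 RPKM in WT EBs (1.06, SE 0.08 and edgeR adjusted p = 1.13e-12), and in ESCs 6.28 ± 0.544 RPKM in KD and 3.53 ± 0.426 RPKM in WT cells (0.84, SE 0.16 and edgeR adjusted p = 0.0435). None of the EB groups of these 4 genes overlapped.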

How the data were processed

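Per the file headers, the deposited values are raw counts per gene from featureCounts with the Ensembl release 90 annotation of GRCm38, for pairs with both ends mapped, with no option for strand, for pairs counted as 1 or for multiply mapped or overlapping reads. Mates were therefore counted singly, and 61.7% to 68.7% of counts from 1 to 10 were even. Reads that overlapped more than 1 annotated gene on either strand were left uncounted, while the full gene length entered the RPKM. Sense and antisense reads cannot be told apart. The submitters' processing notes name HISAT2 2.1.0, featureCounts 2.0.3 and DESeq2 1.18.1, with mm10. KD and WT were compared in each stage on its own (6 libraries) with edgeR 4.0.16 in R 4.3.3: TMM, filterByExpr (minimum count 10, minimum total 15), a robust quasi-likelihood F-test and Benjamini-Hochberg adjustment over all tested genes. EBs against ESCs and the difference between stages came from 1 fit of 12 libraries. The SE is the absolute log2 fold change over the root of its F statistic. RPKM was computed from the deposited counts and gene lengths with the TMM factors of all 12 libraries. Intervals between libraries are SDs and cover no other error, and PCR copies were not told apart.

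Members with a mean TPM of at least 1 in any group that were called in EBs, ESCs or the stage difference were given library by library (19 genes), as were partners with an absolute log2 fold change of at least 1. Coordinates and exon overlaps are from GENCODE M21, promoters from RefSeq. The members, lists and alternatives were chosen with earlier results of these data known. The fits were tested on simulated counts. Alternatives were DESeq2 1.42.0, other scaling, no filter, halved counts, a replicate block, other libraries in the fit, and each library left out.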

Additional observations from a re-analysis of the deposited data

Results flagged for a closer look

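For 8 members the KD effect in EBs differed from that in ESCs by a test of the difference itself, given as the log2 effect in EBs minus that in ESCs. The differences were 2.05 for Fgf4, 1.69 for Etv4, 1.10 for Etv5 and −0.83 for Fgfr1, and these calls were made in each setting tried. They were 0.93 for Spry4, 0.75 for Fgf10 and 0.60 for Fgf3, of which each lost its call in several of the fits that leave out 1 library and without TMM scaling. For Fgf18 the fitted difference was −6.98, which depends on the prior count and is no bound, because WT ESCs held 0 counts. Its counts were 7, 6 and 4 in KD EBs, 8, 10 and 8 in WT EBs, 12, 11 and 2 in KD ESCs, and 0 in each WT ESC library. KD ESCs were thus at least 9.76-fold higher than WT ESCs, against a floor of 3 counts over the group. Fgf18 was below the count filter in ESCs and was not tested between KD and WT there. Mates were counted singly, so 3 counts can come from fewer fragments. The least folds given for Fgf18, Fgf5 and Fgf12 depend on this floor and do not cover the spread between libraries.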

How the results depend on the processing

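No named member changed direction with a call under any alternative. In EBs the counts of members higher and lower (13 and 7) stayed within 12 to 14 and 6 to 8 with each library left out. The fit of all 12 libraries lost the higher calls of Fgf10 and Fgf13 and the lower calls of Fgf5 and Fgfr2. DESeq2 also lost the call of Fgf5. In ESCs the count higher (1) was 0 without TMM scaling, 2 with no filter, 2 with DESeq2 and 4 in the fit of all 12 libraries, and the count lower (0) was 1 with no filter, 1 with DESeq2 and 2 in the fit of all 12 libraries. With each library left out they ran from 0 to 2 and from 0 to 1. In the stage difference the count upward (6) was 3 without TMM scaling, and that downward (2) was 4 without TMM scaling, 4 with no filter, 4 with DESeq2 and 1 with counts halved. With each library left out they ran from 3 to 7 and from 2 to 6, the 6 without ESC WT replicate 2. EBs against ESCs gave 19 to 21 higher and 5 to 8 lower in KD cells, and 20 to 23 and 6 to 7 in WT cells. The causes were not tested. Same-numbered libraries did not deviate together (correlations from −0.06 to 0.10), so the numbers were not taken as pairs. With the replicate number as a block the ESC count lower was 1 (Etv4, edgeR adjusted p = 0.0473), and no other call of a named member changed. Members near 0.1 RPKM rest on few counts, and most were below the filter at this depth.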
